A study of Mus musculus with 8 samples.

Results

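H3K27Ac, a histone mark of active promoters and enhancers, was followed at the genes of titin, the Z-disc and the M-band in neonatal mouse hearts. The 9 genes were *Ttn*, *Actn2*, *Ldb3*, *Myoz2*, *Nebl*, *Csrp3*, *Tcap*, *Myom1* and *Myom2*. A peak was given to one of them when its centre lay closer to a curated RefSeq transcription start of that gene than to the start of any other gene. This rule, which uses position and no read count, gave 65 peaks out of the 45987 in the table, of which 45980 lie on assembled chromosomes.

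Ventricles were collected at postnatal day 7 (P7). Both groups carried floxed *Arid1a* alleles (*Arid1a* f/f), and the *Arid1a cKO* group (aMHC-Cre;*Arid1a* f/f) also carried a Cre transgene under the αMHC promoter, which is active in cardiomyocytes and leaves *Arid1a* in place in the other cells of the heart. The ARID1A protein belongs to SWI/SNF, an assembly that moves nucleosomes. Each group had 2 H3K27Ac libraries and 2 input libraries without antibody, 8 in all, and the comparison asks how loss of *Arid1a* from cardiomyocytes changed the mark.

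The deposited table gives each peak's mean normalized read count in each group on the log2 scale, and 0 columns of per-sample values. The depth of each library and the spread between replicates are therefore unknown, and no test or error could be computed for any value below. Reads are given here as normalized reads, the group mean brought back to the linear scale, and differences as *Arid1a cKO* minus control on the log2 scale. A peak is said to have fallen or risen only when its group means differ by 2-fold or more. Counts of such peaks are to be read against the share of all peaks that passed the same limit. Whole ventricles were used, so fewer cells of a type and less H3K27Ac per cell cannot be told apart.

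Titin is a giant protein that runs from the Z-disc, where neighbouring sarcomeres are joined, to the M-band at the middle of the sarcomere, and acts as its molecular spring. At the Z-disc its end is capped by telethonin (*Tcap*), which works with muscle LIM protein (*Csrp3*), while α-actinin (*Actn2*) crosslinks actin and titin and is bound by cypher (*Ldb3*), calsarcin (*Myoz2*) and nebulette (*Nebl*). The myomesins (*Myom1*, *Myom2*) link titin and the thick filaments at the M-band. Variants in several of these genes are a known cause of cardiomyopathy.

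The 250 bases before a start are shown for 6 of the genes, since the strongest peak of each of them covers this stretch. They were read from RefSeq on GRCm38.p6, the assembly that mm10 stands for, 5′ to 3′ along the strand of the gene. Capitals mark matches to any of 5 motifs searched on both strands: the MEF2 core, the CArG box of SRF, the E-box CACGTG, the estrogen-related receptor (ESRR) core AAGGTCA and the TEAD core CATTCC. None of these motifs holds another within its letters.
*Ttn* (chr2:76982548-76982797, minus strand): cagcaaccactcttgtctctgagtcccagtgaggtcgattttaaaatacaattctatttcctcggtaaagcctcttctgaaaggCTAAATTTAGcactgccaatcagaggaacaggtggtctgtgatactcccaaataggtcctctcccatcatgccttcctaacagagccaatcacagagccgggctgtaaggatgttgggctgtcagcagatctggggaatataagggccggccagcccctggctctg
*Actn2* (chr13:12340733-12340982, minus strand): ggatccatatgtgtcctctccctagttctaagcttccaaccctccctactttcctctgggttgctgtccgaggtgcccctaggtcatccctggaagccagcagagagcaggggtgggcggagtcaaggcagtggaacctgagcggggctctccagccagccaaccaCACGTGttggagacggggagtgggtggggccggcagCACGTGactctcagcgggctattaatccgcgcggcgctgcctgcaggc
*Ldb3* (chr14:34588682-34588931, minus strand): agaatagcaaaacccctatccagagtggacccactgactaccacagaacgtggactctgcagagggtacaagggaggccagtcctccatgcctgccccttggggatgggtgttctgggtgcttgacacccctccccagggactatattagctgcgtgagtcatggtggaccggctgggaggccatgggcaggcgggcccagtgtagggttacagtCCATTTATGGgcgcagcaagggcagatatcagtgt
*Myoz2* (chr3:123034988-123035237, minus strand): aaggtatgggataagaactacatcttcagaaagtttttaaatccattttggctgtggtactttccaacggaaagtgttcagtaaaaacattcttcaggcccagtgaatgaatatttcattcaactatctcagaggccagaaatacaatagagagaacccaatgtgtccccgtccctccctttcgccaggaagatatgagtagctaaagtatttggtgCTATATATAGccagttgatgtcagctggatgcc
*Csrp3* (chr7:48848052-48848301, minus strand): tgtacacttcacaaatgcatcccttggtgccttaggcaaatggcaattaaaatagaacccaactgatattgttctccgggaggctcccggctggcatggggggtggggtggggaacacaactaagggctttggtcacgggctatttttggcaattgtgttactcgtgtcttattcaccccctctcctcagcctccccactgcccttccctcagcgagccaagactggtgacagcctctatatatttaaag
*Myom1* (chr17:71019307-71019556, plus strand): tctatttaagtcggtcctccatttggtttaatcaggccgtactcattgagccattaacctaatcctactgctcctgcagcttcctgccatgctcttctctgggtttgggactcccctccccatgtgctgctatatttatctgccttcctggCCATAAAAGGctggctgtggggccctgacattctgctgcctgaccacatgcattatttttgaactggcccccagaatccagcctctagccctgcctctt

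The *Ttn* promoter held 1 MEF2 core, 157 bases before the start, and the *Myoz2* promoter held 1, 24 bases before the start. Among 32851 RefSeq promoters of this length, 0.508% held a MEF2 core. *Actn2* had 2 E-boxes, at 79 and 43 bases, a motif found in 6.02% of the promoters. *Ldb3* and *Myom1* each had a CArG box, at 26 and 90 bases, against 1.47% of the promoters. The *Csrp3* stretch held no match to any of the 5. The ESRR and TEAD cores, present in 4.08% and 12.6% of the promoters, were in none of the 6 stretches shown. Matches are letters in a window and were not tested as binding sites. RefSeq promoters were matched for 7 of the 9 genes, all except *Tcap* and *Myom2*.

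Reads summed over the 65 peaks were lower in *Arid1a cKO* hearts, at 11617 normalized reads against 14548 in controls, which is 20.1% less. Over all 45980 peaks the sum was 5.65% less. Of the 65 differences, 47 lay below 0, 17 above and 1 at 0, so 72.3% lay below 0, where 48.3% of all peaks did. The median difference was -0.33, and over all peaks it was 0.01. Most of these differences were less than 2-fold.

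At the 2-fold limit, 9 of the 65 peaks fell, or 13.8%, where 10.6% of all peaks fell. Another 2, or 3.08%, rose, against 4.57% of all peaks. These shares are close to those of the whole table, and the genes differ from it in the common small deficit more than in the number of large changes. Among the 31 peaks with a mean read count at or above the median of the table, 27 lay below 0, with a median of -0.36 against -0.01 for all 22995 peaks of that strength. Of these 31, 3 fell and 0 rose, where 5.96% of the 22995 fell and 0.7% rose. The 34 weaker peaks had a median of -0.25, and 14 of them lay above 0.

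**Figure D1:**
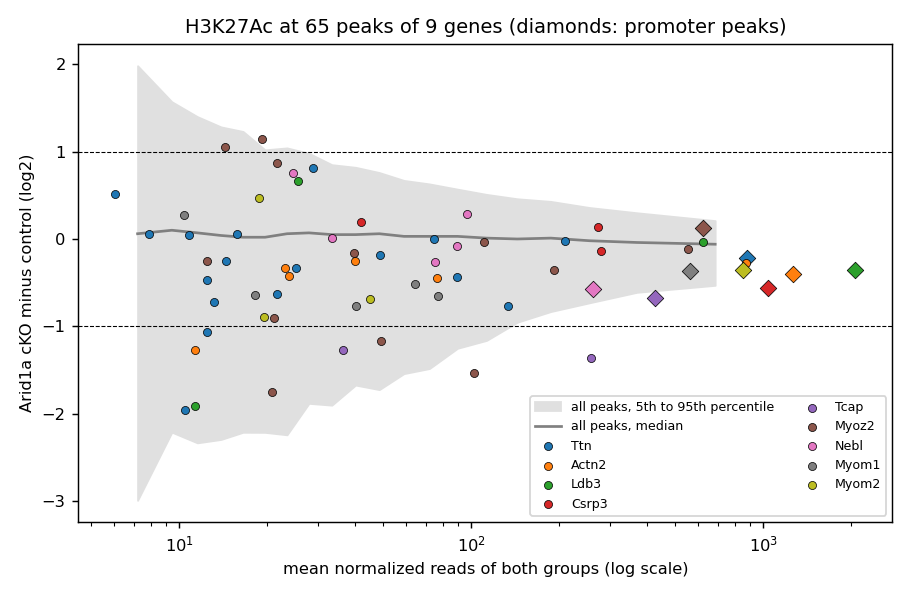
Difference between *Arid1a cKO* and control (log2, vertical axis) against the mean normalized reads of both groups (log scale) for the 65 peaks, coloured by gene, with diamonds for promoter peaks and dashed lines at 2-fold. The grey band and line give the 5th to 95th percentiles and the median of all peaks in 20 bins of equal number. Of the 9 promoter diamonds, 8 lie below 0, and the *Tcap* point with 370 control reads lies far under the band.

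Summing the reads of each gene gave a lower value in *Arid1a cKO* hearts for 9 of 9 genes, where 50.3% of the 15761 genes with a peak lay below 0. The summed difference ran from -0.14 for *Myoz2* to -0.94 for *Tcap*. *Tcap* had the greatest deficit of the 9, with 948 normalized reads in control and 494 in *Arid1a cKO* hearts, 47.9% less. The next by nearest start, *Myom1*, was 25.7% less, but over the gene span *Actn2* lay lower than *Myom1*, at -0.49 and -0.40. The remaining 7 genes were between 9.51% and 22.6% less. For all 9 genes the sum did not reach a 2-fold change.

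**Figure D2:**
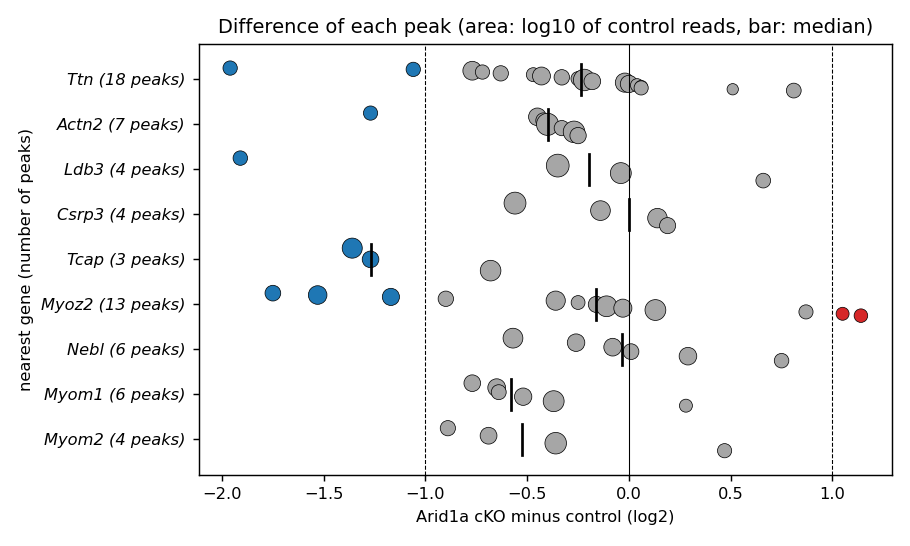
Difference of each peak (log2) by nearest gene, with the point area set by the log10 of control reads, blue for peaks that fell and red for peaks that rose by 2-fold or more, and a bar at the median. All 7 peaks of *Actn2* and all 3 of *Tcap* lie to the left of 0, and *Myoz2* alone has both blue and red points.

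Each gene had 1 promoter peak, one that overlaps the stretch from 1000 bp before to 100 bp after a start. These 9 peaks held 61.7% of the control reads of the 65 and made up 67.5% of the summed deficit. They ran from 4.28 kb wide at *Tcap* to 13.8 kb at *Ldb3*. Those of *Tcap*, *Nebl* and *Myom1* were narrower than 9000 bp, the width from which peaks are ranked as broad below. Of all 65 peaks, 9 were 9000 bp or wider, where 2.05% of all peaks were. These wide peaks are a different set of 9, some of them away from a promoter, with a median of -0.27. All 9 promoter peaks belong to the 6755 strong promoter peaks, those among the 11495 peaks with the most reads. Of the 9, 8 lay below 0, against 54.5% of the strong promoter peaks, 47.7% of all promoter peaks and 60.1% of the 942 peaks of 9000 bp or more. The 9 promoter peaks had a median of -0.37, beside -0.02 for the strong promoter peaks and -0.06 for all peaks of 9000 bp or more. Of the 8, that of titin was nearest to 0, and the *Myoz2* promoter was the exception above 0.

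The *Ttn* promoter peak (chr2:76976127-76985702) had 949 normalized reads in control and 815 in *Arid1a cKO* hearts, a difference of -0.22. Of the strong promoter peaks, 15.6% lay as low or lower, and of the peaks of 9000 bp or more, 31.0% did. Titin had 18 peaks, the most of the 9 genes, with 12 below 0, and its sum went from 1752 to 1482 reads. Of these, 6 lay before the start, 5 of them within the neighbouring gene *Ccdc141*, and 12 lay within the titin gene. The promoter peak held 54.2% of the control reads given to titin. The 11 other peaks given to titin inside this very long gene had at most 52.0 control reads each. A further peak inside the gene, nearest to the start of *Plekha3* and so not counted here, had 261 control reads.

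Inside the titin gene, 2 weak peaks fell. One, centred on a coding exon 93.6 kb after the start (chr2:76888364-76889437), went from 16.7 to 4.29 normalized reads, -1.96. The other, in an intron 53.1 kb after the start, went from 16.8 to 8.06, -1.06. Both were among the 11495 weakest peaks of the table, of which 16.6% fell by 2-fold or more. The other 15 titin peaks lay between -0.77 and 0.81. The strongest of those upstream, 51.3 kb before the start inside *Ccdc141*, had 211 reads in control and 208 in *Arid1a cKO* hearts, whereas the peak 30.6 kb before the start had 169 and 99.0, -0.77.

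At the Z-disc, the peaks of *Actn2* lay below 0 without exception. Its promoter peak (chr13:12332163-12341972), with 2 E-boxes in the stretch shown above, had 1438 reads in control and 1090 in *Arid1a cKO* hearts, -0.40. A 20.8 kb wide peak in its introns, the widest of the 65, had 955 and 792, -0.27. Of the 7 peaks given to *Actn2*, only the intronic peak 34.7 kb after the start fell, from 16.0 to 6.63, -1.27. The 4 others lay between -0.45 and -0.25, and the sum of the 7 went from 2594 to 2031 reads. A stronger peak inside the gene but nearest to the start of *Mtr*, outside this sum, fell from 357 to 159, -1.17.

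*Ldb3*, which encodes the PDZ and LIM protein cypher, had the highest level per length of the 9 genes, 86.7 normalized reads per kb in control and 71.7 in *Arid1a cKO* hearts. Its promoter peak (chr14:34580247-34594054) was the strongest of the 65, with 2320 reads in control and 1820 in *Arid1a cKO* hearts, -0.35. The broad intronic peak beside it, 17.7 kb wide, showed little difference, with 630 and 613 reads, -0.04. An intronic peak 30.0 kb after the start fell from 17.9 to 4.76 reads, -1.91, and the peak 32.6 kb after the start had 19.8 and 31.3 reads, 0.66. These 2 weak neighbours therefore lay on opposite sides of 0. Without the promoter peak the summed difference of *Ldb3* was -0.04, in place of -0.28.

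*Myoz2* encodes calsarcin, which ties calcineurin to α-actinin, and it was the single gene of the 9 with peaks past 2-fold in both directions, among 13 peaks. Of the 13, 3 fell and 2 rose, where 10.6% and 4.57% of all peaks did. The promoter peak (chr3:123026998-123036527) had 596 reads in control and 653 in *Arid1a cKO* hearts, 0.13, the single promoter peak of the 9 that was higher. Of the strong promoter peaks, 82.4% lay as low or lower, and of the broad peaks 82.2%. All 5 peaks that changed by 2-fold or more lay upstream of the gene. Of the 13 peaks, 9 had their centre inside *Synpo2*, the gene of another Z-disc protein, so that nearest start and host gene differ there. Counted instead over the peaks that overlap *Myoz2* itself or the 5000 bp before it, the summed difference was 0.13 in place of -0.14.

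The largest loss of reads among the upstream *Myoz2* peaks was 36.2 kb before the start (chr3:123069913-123072447), in no curated gene, where the group means fell from 152 to 52.7, -1.53. Peaks 76.4 kb and 96.8 kb before the start fell from 32.0 to 9.51, -1.75, and from 68.1 to 30.3, -1.17. In contrast, peaks 3.98 kb and 68.1 kb before the start rose, from 9.38 to 19.4, 1.05, and from 12.0 to 26.5, 1.14. The peaks that rose had fewer control reads than those that fell, but control reads enter the call itself, so this is only a description. The peak at 3.98 kb was among the 11495 weakest of the table, of which 12.6% rose. That at 68.1 kb was among the next 11495, of which 4.31% rose. A broad peak 54.8 kb before the start, at 572 and 530 reads, differed by -0.11. The central 200 bases of the peak 36.2 kb upstream are printed because it lost the most reads of the upstream *Myoz2* peaks, and they held 0 matches to the 5 motifs.
*Myoz2* distal peak (chr3:123071080-123071279, plus strand): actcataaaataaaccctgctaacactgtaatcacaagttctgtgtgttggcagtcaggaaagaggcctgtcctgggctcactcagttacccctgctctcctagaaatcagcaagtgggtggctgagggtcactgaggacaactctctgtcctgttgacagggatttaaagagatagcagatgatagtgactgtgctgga

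*Nebl* encodes nebulette, a cardiac relative of nebulin, and had the lowest level per length, 36.4 normalized reads per kb in control and 31.3 in *Arid1a cKO* hearts. It has 4 curated starts, and a promoter peak was present at only 1 of them, that of the transcript that starts farthest downstream (chr2:17455597-17462813). There the means were 313 and 211 reads, -0.57. As low or lower lay 3.05% of strong promoter peaks and 6.58% of broad peaks, a class wider than this peak. The other 5 *Nebl* peaks lay between -0.26 and 0.75, 3 of them above 0. The deficit of this gene thus rested on the promoter peak, and without it the summed difference was 0.06.

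*Tcap*, the gene of the titin cap, had 3 peaks, and all had fewer reads. Its promoter peak (chr11:98381619-98385900) had 526 reads in control and 329 in *Arid1a cKO* hearts, -0.68. As low or lower lay 2.01% of strong promoter peaks and 4.03% of broad peaks, a class wider than this peak of 4.28 kb. The next peak, 4.89 kb before the start (chr11:98376452-98381394), fell from 370 to 144 reads, -1.36. These genes had 18 peaks among the 11495 with the most reads, and this was the single one of the 18 that fell by 2-fold, with 1.29% of the 11495 as low or lower. The third, 8.87 kb before the start, fell from 51.6 to 21.4, -1.27. Both distal peaks had their centre inside *Stard3*, the neighbouring gene, and they are given to *Tcap* by distance alone. The loss over the 3 peaks made up 15.5% of the loss over all 9 genes.

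*Csrp3* encodes muscle LIM protein, a Z-disc partner of telethonin. Its promoter peak (chr7:48838693-48850216), which covers both curated starts, had 1235 reads in control and 838 in *Arid1a cKO* hearts, -0.56. Of the strong promoter peaks 3.14% lay as low or lower, and of the broad peaks 6.69%. The other 3 peaks differed little, between -0.14 and 0.19. A peak directly upstream, separated from the promoter peak by a short gap, had 260 and 286 reads, 0.14. The deficit at this gene thus rested on the promoter peak, and without that peak the summed difference was 0.01.

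**Figure D3:**
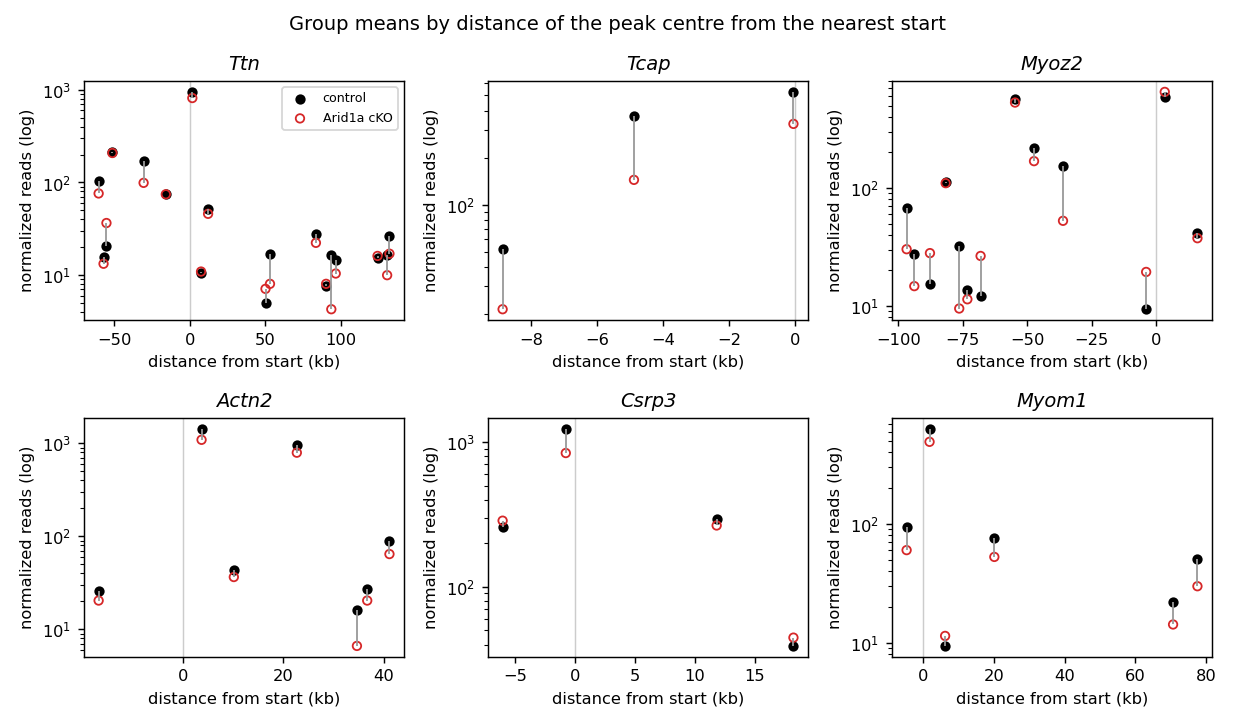
Normalized reads (log scale) of control (filled) and *Arid1a cKO* (open red) group means against the distance of the peak centre from the nearest start (kb, positive in the direction of transcription), for 6 of the genes. *Tcap* shows the drop from 370 to 144 reads at 4.89 kb upstream, and *Csrp3* shows its widest gap at the promoter peak.

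At the M-band, *Myom1* and *Myom2* had no peak past the 2-fold limit, yet 8 of their 10 peaks lay below 0, with a median of -0.58. *Myom1* encodes myomesin, and its promoter peak (chr17:71018403-71024523) had 635 reads in control and 491 in *Arid1a cKO* hearts, -0.37. Its 5 other peaks, with 9.38 to 94.4 control reads, lay between -0.77 and 0.28. The promoter peak of *Myom2* (chr8:15055094-15064839) had 962 and 750 reads, -0.36, and held 90.8% of the control reads of that gene. The 3 others lay between -0.89 and 0.47. The promoter peaks of the pair therefore differed from control by almost the same amount.

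By position, 32 of the 65 peak centres lay in an intron of their gene, 5 in a coding exon, and 28 outside the gene, 17 of these within another curated gene. None of the 9 peaks that fell was a promoter peak, and only 1.87% of all promoter peaks and 0.81% of the strong ones fell. The 9 peaks lay between 4.89 and 96.8 kb from the start, 4 inside the gene and 5 outside. Of the 9, 6 had a mean read count under the median of the table. Of the 4878 peaks that fell in the whole table, 1370 were at or above that median. Over the full width of the 65 peaks, the MEF2 core occurred 0.0594 times per kb, where all peaks had 0.0334, and 11 of the 65 held it. The TEAD core occurred 0.764 times per kb against 0.612, the CArG box 0.0679 against 0.0541, the ESRR core 0.229 against 0.230, and the E-box 0.161 against 0.167. Among the 9 peaks that fell, 1 held a MEF2 core (11.1%, against 7.56% of all peaks), the *Ttn* peak 93.6 kb after the start. An E-box was in 5 (55.6% against 28.9%), a TEAD core in 4 (44.4% against 65.4%), an ESRR core in 2 (22.2% against 36.6%) and a CArG box in 1 (11.1% against 11.6%). Per kb these 9 peaks held 0.652 TEAD cores, above the 0.612 of all peaks, and 0.119 ESRR cores, below 0.230. The E-box was at 0.415 per kb against 0.167, the MEF2 core at 0.0593 against 0.0334 and the CArG box at 0.0593 against 0.0541. For TEAD the 2 measures thus point in opposite directions. Motif counts depend on the width and base composition of the peaks and are given as a description.

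Markers of some other cell types also differed between the groups, while those of others were close. All 6 fibroblast markers (*Col1a1*, *Col1a2*, *Pdgfra*, *Dcn*, *Tcf21*, *Postn*) had summed differences above 0, between 0.25 and 0.58, and their summed reads were 3259 in control and 4383 in *Arid1a cKO* hearts. Of the 8 cardiomyocyte markers, 7 had a peak by nearest start, all except *Actc1*, and 5 of the 7 lay below 0, with 20596 and 19089 summed reads. By summed difference the 4 ventricular markers all lay below 0, with a median of -0.38, while the 4 of 6 atrial markers with a peak all lay above 0. Single ventricular peaks were mixed, as 1 of 10 fell and 2 rose, where 10.6% and 4.57% of all peaks did. *Myl7*, the atrial light chain, had 11.3 and 56.0 reads, *Nppa* had 49.5 and 234, and *Sln* and *Bmp10* had no peak. Endothelial markers lay between -0.03 and 0.22, with 11020 and 11223 summed reads, and mural markers between -0.12 and 0.18, with 2727 and 2839. Leukocyte markers had a peak at 3 of 6 genes, all above 0, with 105 and 154 summed reads. Skeletal muscle markers had a peak at 2 of 6 genes, *Myog* and *Myf6*, both above 0, with 472 and 543 summed reads. No peak was given to *Myod1*, *Myf5*, *Myh4* or *Myh1*. The part of these cell type differences in the deficit at the titin, Z-disc and M-band genes was not tested. At *Arid1a* itself the promoter peak had 1607 and 1663 reads, a level that does not report on the floxed deletion.

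A wider list of genes linked to the Z-disc and M-band showed a smaller deficit. It also holds genes not strictly of these structures, such as *Actn1* and *Actn4* (0.04 and 0.29) and *Tmod1* and *Lmod2* (-0.49 and -0.54). It is therefore not matched in kind to the 9 genes. Of 38 on the list, 35 had a peak, 26 with a summed difference below 0 and 9 above, and a median over genes of -0.15, where the 9 genes described here had -0.35. Of their 200 peaks, 10.5% fell and 5% rose, near the 10.6% and 4.57% of all peaks. The 9 genes of the sarcomeric myosin list, which includes *Mybpc3* for myosin-binding protein C, had a median of -0.12. Of their peaks, 4 of 19 had fallen (21.1%) and 3 had risen (15.8%). Among the risen peaks, 2 were those of *Myl7*, with 11.3 summed control reads. The troponins and tropomyosins, 11 of 12 with a peak, had a median of 0, with 1 of 24 peaks fallen (4.17%) and 0 risen, against the same 10.6% and 4.57%. The median of all 15761 genes was -0.0044. No test of the difference between lists was made, as the values are group means.

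The 5 lowest sums in these lists were those of *Cmya5* (myospryn) at -1.49, *Myoz3* at -0.98, *Myom3* at -0.95, *Myh7b* at -0.91 and *Tnni1*, the slow skeletal and fetal troponin I, at -0.73. *Myoz3* and *Myom3* belong to the families of *Myoz2* and *Myom1*. *Cmya5* had 283 reads in control and 100 in *Arid1a cKO* hearts, the single sum on the Z-disc and M-band list that fell by 2-fold or more. The 5 highest were *Myl7* at 2.31, *Trim54* at 1.08, *Tnni2* at 0.49, *Tpm2* at 0.36 and *Mlip* at 0.32. *Trim54*, which encodes a muscle RING finger protein, had 42.2 and 89.3 reads in 1 peak.

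**Figure D4:**
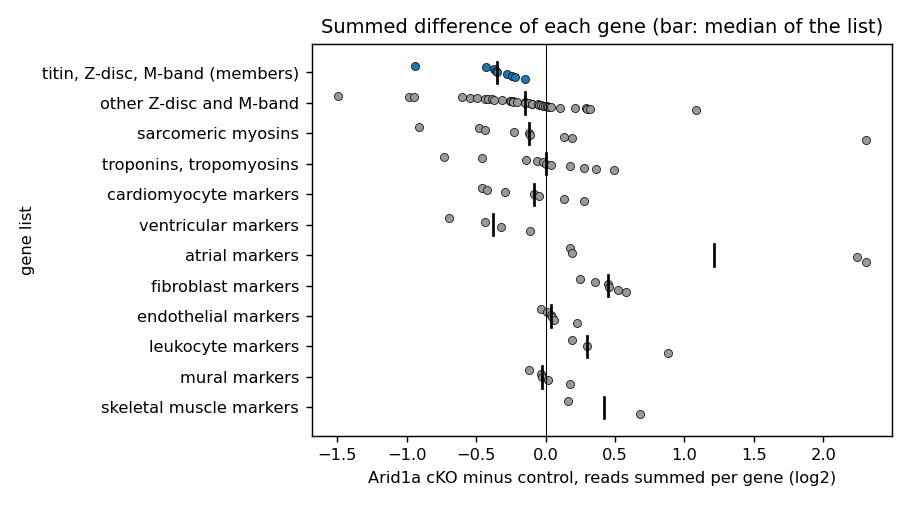
Summed difference of each gene (log2) by list, blue for the 9 genes described here and grey for the others, with a bar at the median of each list. The 9 blue points all lie below 0, from -0.94 to -0.14, and the 6 fibroblast markers all lie above 0.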

How the data were processed

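H3K27Ac ChIP-Seq was read from 2 control and 2 *Arid1a cKO* ventricle samples, with 2 inputs each, grouped by the labels. Alignment by the authors was to mm10 with BWA (0.7.17-r1188). Peak calling used HOMER, version 4.11 in the submitters' processing notes, with the inputs merged, peaks of a single sample were dropped, and groups were compared in DiffBind 2.12.0 through DESeq2 1.24.0. The deposited concentrations are log2 mean normalized read counts of each group, rounded to 2 decimals by the authors. The library scaling and the use of the inputs in these values are not given in the sources used here. As 0 columns hold values of single samples, their depth is unknown. The 3 columns of the authors' own comparison (log2 fold change, p-value and FDR) were not used.

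Peaks were joined to 45756 curated transcripts of the GRCm38.p6 RefSeq annotation, and 7 peaks on unplaced sequences were left out. All 21 chromosomes were checked against the reference. Low values were not filtered, and 0 of the 65 peaks had a group mean at or under a floor of 3 normalized reads. Group means were summed per gene as 2 raised to the concentration. A 2-fold difference counted as a change. The genes, lists and motifs were chosen with earlier results of these data known. All 9 genes were named, with their promoter peak, strongest peak and every peak past 2-fold, and the 5 lowest and 5 highest genes of the other lists, with further peaks and the printed sequences picked after their values were seen. Alternatives changed the fold, the centring, the promoter window, how peaks were given to genes and how a gene was summarised. The steps were tested on simulated data. Python 3.11.15, numpy 2.4.6, pandas 2.3.3 and matplotlib 3.10.9 were used.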

Additional observations from a re-analysis of the deposited data

How the results depend on the processing

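The values are group means of 2 libraries, so the replicate error behind each difference is unknown, and weak peaks, in which a few reads make a large fold, set most of the counts past 2-fold. With a limit of 1.5-fold, 19 of the 65 peaks were lower and 6 higher (17.3% and 12.0% of all peaks), and with 3-fold 3 and 0 (5.6% and 1.35%). Among peaks at or above the median read count 3 were lower and 0 higher (5.96% and 0.70% of all such peaks). Among the 38 peaks within 50000 bp of a start 5 were lower and 1 higher (9.51% and 4% of all such peaks), among the 52 overlapping the gene span 6 and 1 (10.3% and 3.65%), and among the 37 centred inside the gene, an alternative chosen after seeing the data, 4 and 0 (9.69% and 3.46%). Fewer peaks enter these last counts. The median over peaks stayed between -0.375 and -0.30 under its 10 alternatives, and that of the promoter peaks between -0.38 and -0.36. Of 45 alternative values for the summed differences of single genes, 41 lay below 0. Those above 0 were *Myoz2* with the gene span (0.13) and *Csrp3* and *Nebl* without their strongest peak (0.01 and 0.06), and *Csrp3* was at 0 by the median of its peaks. *Ldb3* moved to -0.04 without its strongest peak and *Nebl* to -0.035 by the median of its peaks. With the gene span *Actn2* moved from -0.35 to -0.49, below *Myom1* at -0.40. No paired analysis was possible because the table holds no values per sample, and no sample could be left out for the same reason.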

Other observations

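Another 10 peaks lay inside 5 of the 9 genes but nearer to the start of a different gene, and so are not among the 65 peaks. Of these, 7 lay below 0 and 1 fell by 2-fold or more, where 10.6% of all peaks did. Inside *Actn2*, a peak nearest to the start of *Mtr* (chr13:12272366-12279947) had 357 normalized reads in control and 159 in *Arid1a cKO* hearts, -1.17, and the 16.4 kb wide peak next to it had 832 and 501, -0.73. Inside *Ttn*, a peak nearest to *Plekha3* had 261 and 167, -0.65. Inside *Ldb3*, 3 peaks nearest to *9230112D13Rik* had differences of -0.61, -0.38 and 0. Inside *Nebl*, the highest of the 10 was at 0.82, with 13.9 and 24.6 reads, and inside *Myom1* 3 weak peaks nearest to *Lpin2* were at 0.04, -0.47 and -0.49. In *Actn2* these far peaks thus had larger deficits than its promoter peak at -0.40.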
